A study of Mus musculus with 9 samples.

Results

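The genes described here were above background in mouse colon organoids at the start of the study and on none of the arrays after 60 weeks of treatment with inflammatory reagents. A gene belonged to the set when the scanner software called at least 1 of its probes well above background on all 3 arrays of 0 weeks and none of its probes on any of the 3 arrays of 60 weeks. Genes of chromosomes X and Y were not considered, and 3 genes that met the calls were left out by the rule. Of 12498 named genes outside X and Y that were above background on all 3 arrays of 0 weeks, 160 remained as members, which is 1.28% of them (1.3% with the 3 left out). The opposite pattern, above background on all 3 arrays of 60 weeks and on none of 0 weeks, was met by 178 genes. These calls chose the members, so their levels at 0 and 60 weeks are a description and were not tested. The 12 weeks arrays played no part in the choice.

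Colon organoids are small epithelial structures that grow from colonic crypt cells in culture. The study had 3 groups of 3 arrays: untreated organoids at 0 weeks, and organoids kept under the inflammatory reagents for 12 or for 60 weeks. The labels do not name the reagents, the mouse strain or the age of the animals. Untreated cultures of 12 or 60 weeks were not part of it, so treatment and time in culture cannot be told apart. Nothing says that the replicates came from separate animals or cultures, so p-values measure only the spread between these samples, which may be technical.

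An array probe reports how much labelled RNA it binds, and a gene is called present when its spot is brighter than the surrounding glass by a margin set by the scanner software. A dim gene can cross that margin with a small change, whereas a bright gene crosses it only when most of its signal is gone. In a bulk sample, fewer cells of a type and less RNA per cell cannot be told apart. In the colon, a gene may be restricted to a rare cell type, such as the chemosensory tuft cell or the hormone-secreting enteroendocrine cell, or be used by all epithelial cells.

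The scanner software called 49.2% to 52.7% of an array's probes well above background. Of 18 epithelial markers, 16 were above background on all 9 arrays, and Hoxb13 and Hoxd13 were not. Replicates correlated across genes at 0.994 to 0.996 at 0 weeks and 0.990 to 0.994 at 60 weeks. At 12 weeks the correlation was 0.992 between replicates 1 and 3, but 0.978 and 0.977 where replicate 2 was involved. Genes are not independent replicates, and these correlations describe the arrays only. The 0 weeks arrays and 12 weeks replicate 1 lay in 1 row of the first slide, and the other 12 weeks arrays in the other row. Replicates 1 and 2 of 60 weeks also lay in that other row and replicate 3 on another slide, so no 60 weeks array shared a row with a 0 weeks array, and position and group cannot be told apart between 0 and 60 weeks.

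A level is the log2 of a probe's signal over the 75th percentile of its array, and is 0 for a probe at that percentile. Most members were dim from the start. Their mean level at 0 weeks had a median of -3.54 and ranged from -4.50 to 2.30, against a median of 1.59 over all 12498 genes above background at the start. Among start-detected genes with a mean level under -4, 34 of 167 became members (20.4%). The share fell with each brighter class, from 7.24% between -4 and -3 to 3.47%, 1.81% and 0.457% in the next classes. Of the 8464 genes at a level of 0 or over, 6 became members (0.0709%): Syce2, Map2k6, Gramd1a, Fam149a, Lhpp and Dmrta2.

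**Figure D1:**
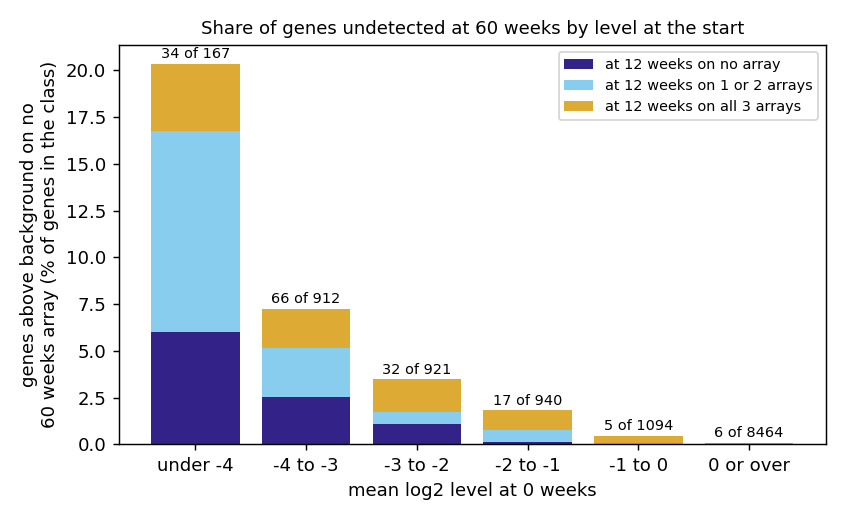
Share of the genes above background on all 3 arrays of 0 weeks that were members (vertical axis, percent of the genes in the class), by mean log2 level at 0 weeks (horizontal axis), with bars split by detection at 12 weeks and the counts above them. The share is 20.4% in the dimmest class and 0.0709% in the brightest, and every member at -1 or over was above background on all 3 arrays of 12 weeks.

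Since a member has no measured level at 60 weeks, its change is a bound, written as at least N-fold lower. The bound compares the mean of the 0 weeks arrays with the lowest signal called well above background on each 60 weeks array, or with the probe's own signal where that was higher. It had a median of 2.24-fold and ranged from 1.15-fold to 130-fold. It was at least 4-fold for 46 members, at least 8-fold for 21 and at least 16-fold for 10. On the 60 weeks arrays, 82 members had a mean level under -6, where the lowest hundredth of all probes lay under -7.00, -6.87 and -7.25 on the 3 arrays.

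Not well above background is a strict call and does not mean that no signal was there. Under the scanner's more lenient call, of a signal that is positive and significant against the local background, 70 members still had a signal on all 3 arrays of 60 weeks, 68 on 1 or 2, and 22 on none. Among the 46 members whose 0 weeks mean lay at least 2 log2 units above the lowest well-detected signal, 10 had no such signal at 60 weeks and 10 had it on all 3 arrays. Syce2, Map2k6, Dmrta2, Prkaa2, Slc18b1, Serpinb10, Mrgprb2, Cyp3a44, Cyp3a16, Akr1c14 and Zfp651 had none on any 60 weeks array.

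The edge of the set is set by small differences. Just inside it, Cd248, Lrch3 and Vmn2r18 had mean levels of -4.50, -4.50 and -4.49 at 0 weeks and of -5.02, -4.81 and -6.44 at 60 weeks. Another 102 genes stayed out because 1 of the 3 arrays of 60 weeks was above background. Of these, Rbp2 went from -3.44 to -5.21, Gad2 from 0.11 to -4.88 and Nps from -4.22 to -4.98. A further 100 genes stayed out because only 2 of the 3 arrays of 0 weeks were above background. Of these, Fabp1 went from -3.56 to -6.97, Slitrk6 from -3.71 to -6.34 and Treh from -3.81 to -5.73.

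The 12 weeks arrays split the members by how early they were lost. At 12 weeks, 44 members were above background on no array (27.5%), 26 on 1 array, 28 on 2 arrays, and 62 on all 3 (38.75%). Over all 12498 start-detected genes, 0.84% were above background on no 12 weeks array and 96.4% on all 3. Since the 0 weeks arrays helped to choose the members and most were dim, nothing is read from the gap between these shares. Of the members, 102 were above background on 12 weeks replicate 1, 80 on replicate 2 and 86 on replicate 3. Without replicate 2, 50 members were on no 12 weeks array and 78 on both.

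The 3 classes differed in level. Members already lost by 12 weeks had a median level of -3.61 at 0 weeks, -5.98 at 12 weeks and -6.13 at 60 weeks. Those present on only some of the 12 weeks arrays had medians of -3.85, -4.54 and -5.56. Members present on all 3 arrays at 12 weeks had medians of -2.80, -2.15 and -6.31. The classes were sorted by detection at 12 weeks, so their order at 12 weeks follows from the sorting.

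**Figure D2:**
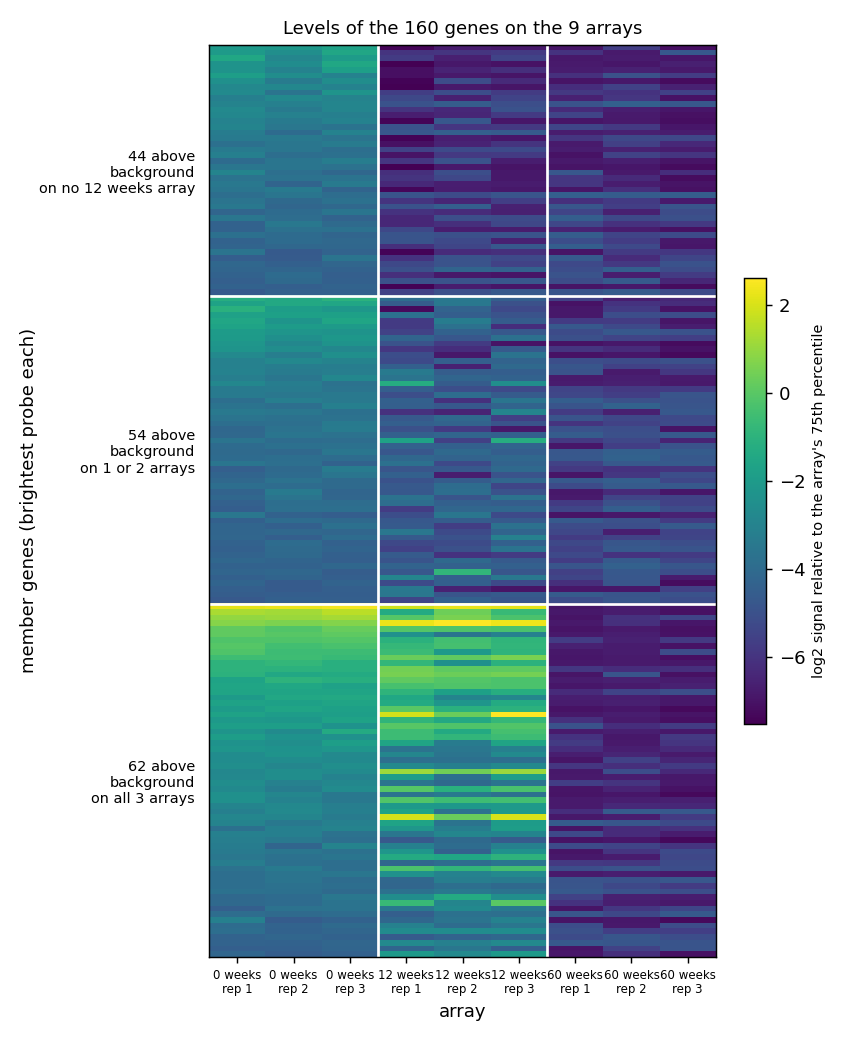
Log2 level of the 160 members (rows, by detection at 12 weeks and then by level at 0 weeks) on the 9 arrays (columns), relative to each array's 75th percentile. The 44 members in the top block are darker from 12 weeks on. The 62 in the bottom block, which include the brightest, have median levels of -2.80 at 0 weeks, -2.15 at 12 weeks and -6.31 at 60 weeks. The dimmest of these are dark at 0 weeks too, down to -4.35.

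limma was fitted over all 14034 genes tested, and all 160 members were among them because their 0 weeks arrays passed the filter on dim probes. At 12 against 0 weeks, limma called 23.9% of the 12498 start-detected genes lower and 17.2% higher at an adjusted p under 0.05. Of the members, 66 were called lower (41.25%) and 25 higher (15.6%). The members' falls are not evidence of their own, since the members had to be above background at 0 weeks. By class, 37 of the 44 members lost by 12 weeks were called lower and 0 higher. Of the 54 in between, 23 were called lower and 0 higher. Of the 62 still present, 25 were called higher and 6 lower, and 31 were not called. These classes were sorted by the same 12 weeks arrays, so nothing is read from how the calls fall among them. Without 12 weeks replicate 2, 73 members were called lower and 32 higher. A fit that blocks on the slide row, and so compares 12 weeks replicate 1 alone with the 0 weeks arrays of its row, called 57 lower and 23 higher. Over all genes tested, 24.9% had every 12 weeks array above every 0 weeks array and 29.7% had every one below. Of the 62 members still present, 25 and 9 did.

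Promoter sequences are shown for the 3 brightest members lost by 12 weeks and the 2 brightest lost only later, because the classes differ in the number of CG dinucleotides before their starts. CG-rich promoters are typical of widely used genes, and CG-poor promoters of genes restricted to few cell types. The sequences are the 250 bases before the start from RefSeq, build GRCm38.p6, 5′ to 3′ on the gene's strand, with each CG in capitals. The arrays were designed on an older build, and the sequences were matched by gene name.
Gprc5b (chr7:118995212-118995461, minus strand): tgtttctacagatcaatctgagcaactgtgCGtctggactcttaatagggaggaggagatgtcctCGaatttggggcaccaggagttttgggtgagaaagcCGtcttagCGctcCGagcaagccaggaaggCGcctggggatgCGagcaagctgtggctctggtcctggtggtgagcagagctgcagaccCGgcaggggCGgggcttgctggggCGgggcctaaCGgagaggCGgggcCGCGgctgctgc
Plb1 (chr5:32238834-32239083, plus strand): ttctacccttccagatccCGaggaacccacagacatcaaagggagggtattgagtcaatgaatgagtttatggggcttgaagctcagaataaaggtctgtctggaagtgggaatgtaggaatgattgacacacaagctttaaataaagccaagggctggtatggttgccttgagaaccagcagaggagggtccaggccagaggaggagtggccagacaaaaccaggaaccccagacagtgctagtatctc
Nwd2 (chr5:63648853-63649102, plus strand): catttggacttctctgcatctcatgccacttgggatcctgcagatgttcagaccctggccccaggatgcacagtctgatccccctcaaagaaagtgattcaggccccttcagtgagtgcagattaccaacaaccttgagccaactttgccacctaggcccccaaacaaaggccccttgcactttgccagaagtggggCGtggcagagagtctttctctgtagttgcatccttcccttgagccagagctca
Syce2 (chr8:84871861-84872110, plus strand): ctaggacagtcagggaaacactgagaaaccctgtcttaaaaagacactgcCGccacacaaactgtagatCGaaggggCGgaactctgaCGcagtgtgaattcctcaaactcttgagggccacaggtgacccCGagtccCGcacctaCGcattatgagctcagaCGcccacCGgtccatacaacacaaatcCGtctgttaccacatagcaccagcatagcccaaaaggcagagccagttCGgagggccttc
Map2k6 (chr11:110398852-110399101, plus strand): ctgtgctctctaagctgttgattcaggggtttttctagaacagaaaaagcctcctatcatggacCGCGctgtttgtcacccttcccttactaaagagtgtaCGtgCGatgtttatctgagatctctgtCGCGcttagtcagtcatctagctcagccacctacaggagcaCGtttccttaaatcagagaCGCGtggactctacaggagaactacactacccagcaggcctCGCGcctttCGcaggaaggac
Gprc5b held 14 CG dinucleotides, Plb1 1, Nwd2 1, Syce2 11 and Map2k6 12. The brightest gene of the early class was thus CG-rich, and the next ones were CG-poor.

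Over the 126 of 160 members with a RefSeq promoter entry, the median was 9 CG dinucleotides. It was 3 in the members lost by 12 weeks (35 matched), 6 in the middle class (42 matched) and 16 in those present throughout 12 weeks (49 matched). All start-detected genes had a median of 15 (9999 matched). At most 3 CG dinucleotides stood before 51.4% of the early class, 10.2% of the late class and 12.0% of all start-detected genes. Among start-detected genes the share was 30.4% under a level of -2 and 8.67% at -2 or over. The early class lay under -2 at 0 weeks except for Gprc5b (-1.97). Level at the start moved with this count: start-detected genes under a level of -2 had a median of 8 and those at -2 or over had 16, and members had 7 and 14. The part of the level in the difference between the classes was not tested. Counted over the whole 300-base entries, the member median was 14 and the class medians were 6, 8 and 19.

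**Figure D3:**
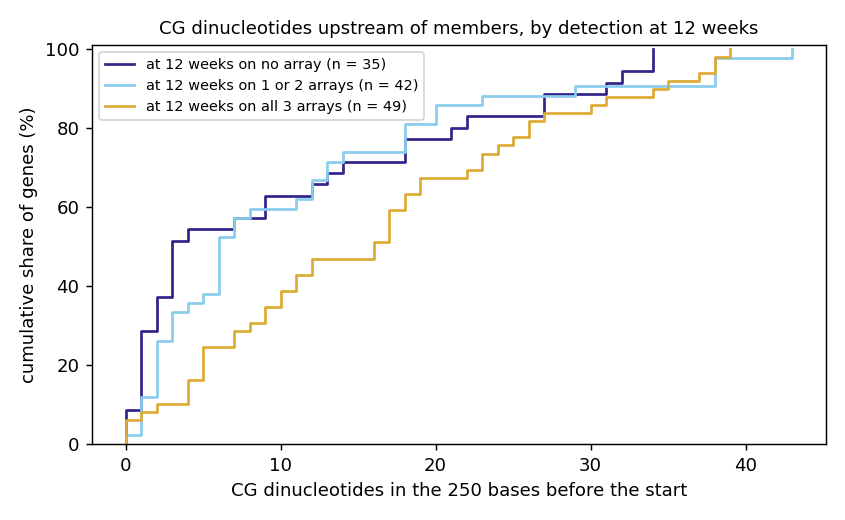
Cumulative share of members (vertical axis, percent) by the number of CG dinucleotides in the 250 bases before the start (horizontal axis), with 1 line for each class of detection at 12 weeks. Among members lost by 12 weeks 51.4% have 3 or fewer, and among those on all 3 arrays of 12 weeks 10.2% do.

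The letters TATAAA, the core of the TATA box, were found on either strand in 7.14% of the matched members, 7.27% of start-detected genes and 13.0% of all promoters in the table. They stood before 5 of the 35 early members, 4 of the 42 in the middle class and 0 of the 49 late ones. The letters TGANTCA, with any base at N, are a looser form of the AP-1 factor site, which has C or G there. They were found on either strand in 8.73% of members, 4.83% of start-detected genes and 6.87% of all promoters. Of the promoters printed above, Plb1 held TGAGTCA, while Nwd2 and Map2k6 held TGATTCA, which has neither C nor G at N. A match to such letters is a description of the sequence, and no factor was measured.

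Among the members lost by 12 weeks, with clone and predicted-gene names passed over, the 12 brightest included receptors, proton pump and brush-border enzymes, and a T-box transcription factor. Gprc5b, a retinoic acid-inducible orphan receptor on chromosome 7, lay at -2.04, -2.14 and -1.72 at 0 weeks, at -7.36, -6.72 and -6.84 at 12 weeks and at -6.92, -5.63 and -7.08 at 60 weeks. All 6 treated arrays lay below the untreated ones. It was at least 7.04-fold lower at 12 weeks and at least 6.72-fold lower at 60 weeks (limma adjusted p = 2.66e-05 at 12 against 0 weeks). Plb1, a phospholipase of the intestinal brush border on chromosome 5, lay between -2.53 and -1.52 at 0 weeks, then at -5.98, -5.93 and -5.78, and at -6.01, -6.77 and -4.72 at 60 weeks. It was at least 6.82-fold lower at 12 weeks and at least 6.18-fold lower at 60 weeks. Gprc5b and Plb1 each had a second probe, at means of -6.05 and -6.81 at 0 weeks, that was above background on no array. Each of these losses thus rests on 1 probe. Nwd2, which encodes a protein with NACHT and WD repeat domains, had 3 probes, of which 2 were above background at 0 weeks and none at 12 or 60 weeks. Its brightest probe lay at -1.47, -2.88 and -1.97 at 0 weeks and between -6.60 and -5.46 at 12 weeks.

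Atp6v1b1 encodes a B subunit of the vacuolar proton pump, known from acid-secreting cells of the kidney and inner ear. It lay at -2.33, -2.58 and -1.49 at 0 weeks, at -7.49, -6.86 and -7.00 at 12 weeks and at -6.78, -6.87 and -6.62 at 60 weeks. It was at least 6.29-fold lower at 12 weeks (limma adjusted p = 6.79e-06). A second subunit of the same pump, Atp6v0a4, was picked out after its values were seen. It lay at -3.45, -4.26 and -3.36 at 0 weeks, at -6.35, -6.65 and -6.73 at 12 weeks and at -5.91, -6.70 and -6.98 at 60 weeks. Both genes lie on chromosome 6, and Atp6v0a4 was at least 2.14-fold lower at 12 weeks.

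The other bright early losses came from varied families. Grxcr1, a glutaredoxin-domain protein of inner ear hair cells, went from a mean of -2.36 at 0 weeks to -6.57 at 12 weeks and -6.70 at 60 weeks. Siglec15, a sialic acid-binding lectin known from osteoclasts, went from -2.48 to -6.94 and lay at -5.60 at 60 weeks. Tbx15, a T-box transcription factor of skeletal development, lay at -2.77, -2.81 and -3.01 at 0 weeks and at -7.46, -6.82 and -6.94 at 12 weeks. At 60 weeks Tbx15 lay at -6.19, -5.56 and -6.56. The more lenient call was met on all 3 arrays of 60 weeks by Siglec15 and Tbx15, and on 1 by Grxcr1. limma called Grxcr1, Siglec15 and Tbx15 lower at 12 weeks (adjusted p = 3.58e-05, 3.56e-05 and 1.14e-05). Their bounds at 12 weeks were 5.36-fold, 4.96-fold and 3.79-fold. Serpinb10, a serpin of blood-forming cells, had a bound of 4.08-fold. Sorbs3, an adaptor protein of focal adhesions, had one of 3.51-fold. Ackr3, a receptor that scavenges the chemokine Cxcl12, and Oprd1, the delta opioid receptor, each had a bound of 3.42-fold. Med9os, a noncoding RNA, lay at -2.99, -3.09 and -2.89 and then at -4.95, -4.53 and -5.06, close under the detection edge, with a bound of 3.29-fold. limma called all 12 lower at 12 weeks. Members lost by 12 weeks were sorted by these same arrays, which made a call of lower likely. The p-values given for any of them, here or elsewhere, are therefore a description and no support of their own.

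**Figure D4:**
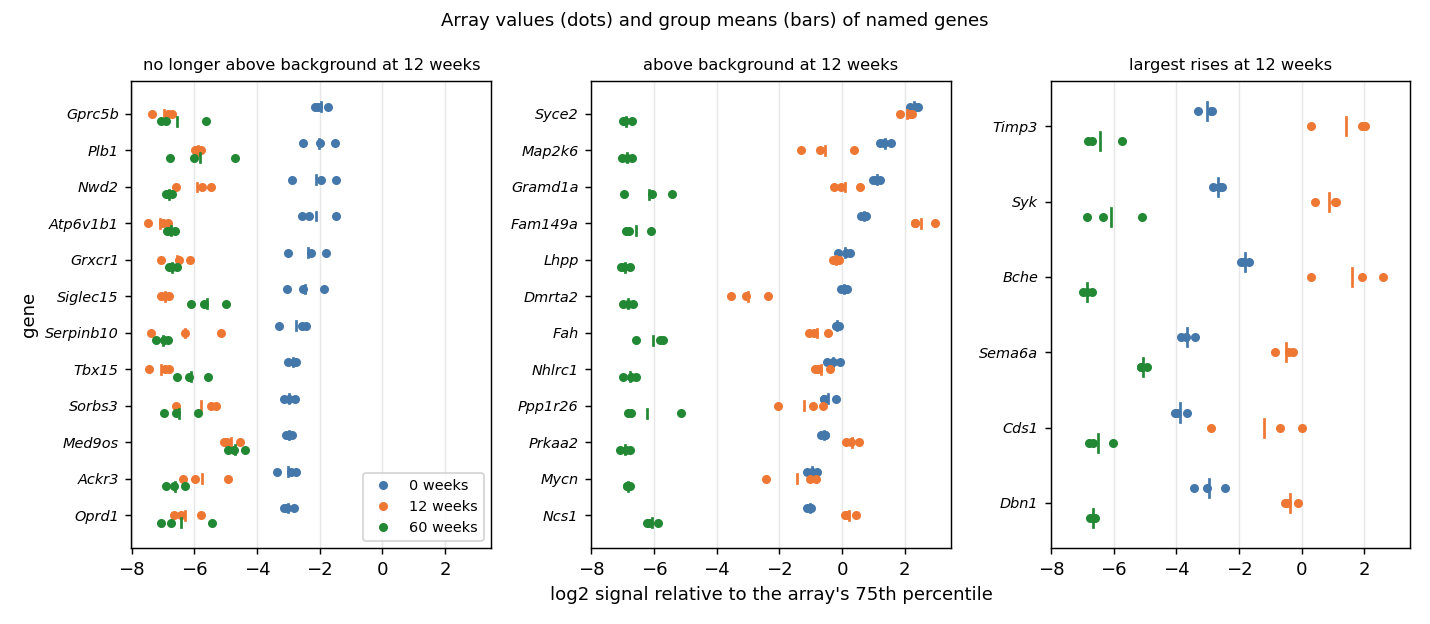
Log2 level, in relation to the 75th percentile of the array, (horizontal axis) of named genes (vertical axis) on each array (dots) with the group mean (bars), for the 12 brightest members lost by 12 weeks (left), the 12 brightest present at 12 weeks (middle) and the 6 with the largest rises at 12 weeks (right). Clone and predicted-gene names are passed over. In the left panel the 12 and 60 weeks dots of each gene lie below its 0 weeks dots. In the middle one Syce2 has means of 2.30 at 0 weeks and 2.09 at 12 weeks, and on the right Timp3 goes from -3.03 up to 1.41 and then to -6.43.

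The members with the highest starting levels were all still present at 12 weeks. Syce2, a central element of the synaptonemal complex that joins chromosomes in meiosis, was the brightest of the 160. Its scanner intensities at 0 weeks were 2623, 2274 and 2416. They read 2257, 2503 and 2553 at 12 weeks, but only 4.12, 3.91 and 3.86 at 60 weeks. On the log2 scale it lay at 2.18, 2.31 and 2.41, then at 1.85, 2.23 and 2.18, and at 60 weeks at -6.94, -6.72 and -7.00. The 12 weeks arrays overlapped those of 0 weeks, with a difference of -0.22 ± 0.13 (SE, limma adjusted p = 0.224). At 60 weeks Syce2 was at least 130-fold lower than at 0 weeks. The genes next to it on chromosome 8, Farsa and Gcdh, went from 3.16 to 3.07 and from 0.09 to -0.26 and stayed above background on all 3 arrays of 60 weeks.

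Map2k6, the kinase that activates p38 MAP kinases, lay at 1.33, 1.21 and 1.56 at 0 weeks, at -1.32, 0.38 and -0.71 at 12 weeks, and at -6.85, -6.72 and -7.03 at 60 weeks. It fell by 12 weeks, by -1.92 ± 0.37 (limma adjusted p = 0.00403), and was at least 68.0-fold lower at 60 weeks. Dmrta2, a transcription factor with a DM domain, fell further by 12 weeks, from 0.15, -0.02 and 0.10 to -2.38, -3.56 and -3.07 (limma adjusted p = 5.81e-05). At 60 weeks Dmrta2 lay at -6.82, -6.67 and -7.00, at least 27.8-fold below its start. For these genes the groups did not overlap at any step, and the 12 weeks levels lay between the others.

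Several bright enzymes and signalling genes were above background on all 12 weeks arrays and missed limma's threshold there, although in Gramd1a, Fah and Ppp1r26 every 12 weeks array lay below every 0 weeks array. Gramd1a, a sterol transfer protein of the endoplasmic reticulum, lay at 0.98, 1.10 and 1.22, then at -0.05, 0.59 and -0.26, and was at least 56.5-fold lower at 60 weeks. Its difference at 12 weeks was -1.01 ± 0.37 and missed the threshold (limma adjusted p = 0.0564), although 8 alternative settings called it lower, among them those without 12 weeks replicate 2 (-1.25) and without 60 weeks replicate 1 or 3 (both -1.01). Lhpp, a histidine phosphatase, lay at 0.14, -0.13 and 0.26, then at -0.11, -0.19 and -0.30, and at least 28.0-fold below its start at 60 weeks. Both probes of Gramd1a and of Lhpp were above background on all arrays of 0 and 12 weeks and on none of 60 weeks. Fah, the last enzyme of tyrosine breakdown, had means of -0.15, -0.80 and -6.03 and a bound of 23.7-fold. Nhlrc1, the ubiquitin ligase malin, had means of -0.27, -0.67 and -6.77 and a bound of 21.8-fold. Ppp1r26, a regulatory subunit of protein phosphatase, had a bound of 19.3-fold. Mycn, a transcription factor of the Myc family, lay at -0.97, -0.81 and -1.12, then at -0.83, -2.44 and -1.02, and had a bound of 13.5-fold. None of Lhpp, Fah, Nhlrc1, Ppp1r26 and Mycn passed limma's threshold at 12 weeks (adjusted p = 0.111, 0.0597, 0.0894, 0.255 and 0.337), and the SEs of these differences lay between 0.13 and 0.50. Fah and Nhlrc1 were called lower without 12 weeks replicate 2, at -0.83 and -0.54, and Fah also without 60 weeks replicate 2 (-0.65). Both were also called lower with normexp background correction (limma adjusted p = 0.0102 and 0.0419) and with array weights (0.00474 and 0.0120), and Fah when only the groups compared were fitted (0.0298).

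Other bright members rose before they were lost. Fam149a lay at 0.75, 0.62 and 0.73 at 0 weeks, at 2.32, 2.95 and 2.33 at 12 weeks and at -6.80, -6.08 and -6.89 at 60 weeks. It rose by 1.83 ± 0.24 (limma adjusted p = 0.000663), and at 60 weeks it was at least 42.8-fold below its start and at least 153-fold below its level at 12 weeks. Its other probe, also above background at 0 and 12 weeks, had means of -2.81, -1.94 and -6.93. Prkaa2, a catalytic subunit of AMP-activated kinase, rose from -0.55, -0.53 and -0.68 to 0.30, 0.14 and 0.55 (limma adjusted p = 0.00102) and then lay at -6.91, -6.77 and -7.08. Ncs1, a neuronal calcium sensor, rose from -0.98, -1.01 and -1.11 to 0.46, 0.11 and 0.09 (limma adjusted p = 0.000247) and was at -5.86, -6.23 and -6.15 at 60 weeks. In each of these 3 genes every 12 weeks array was above every 0 weeks array.

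The largest rises at 12 weeks belonged to dimmer members. Timp3, a matrix-bound inhibitor of metalloproteinases, lay at -2.86, -2.90 and -3.31 at 0 weeks, at 1.94, 0.29 and 2.01 at 12 weeks and at -6.83, -6.70 and -5.75 at 60 weeks. It rose by 4.44 ± 0.47 (limma adjusted p = 0.000212) and was then at least 70.1-fold lower at 60 than at 12 weeks. Syk, a tyrosine kinase that signals from immune receptors, lay at -2.84, -2.56 and -2.66, then at 1.11, 0.43 and 1.07, and at -6.87, -5.10 and -6.34 at 60 weeks. Its rise was 3.55 ± 0.41 (limma adjusted p = 0.000308). Bche, the serum enzyme butyrylcholinesterase, lay at -1.69, -1.93 and -1.85, then at 1.93, 0.31 and 2.59, and at -6.85, -6.70 and -6.97 at 60 weeks. It rose by 3.44 ± 0.48 (limma adjusted p = 0.000902) and was then at least 80.4-fold lower at 60 than at 12 weeks. In Timp3, Syk and Bche, 12 weeks replicate 2 was the lowest of its group, yet above all untreated arrays.

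Sema6a, a transmembrane semaphorin of axon guidance, rose from -3.69, -3.39 and -3.86 to -0.26, -0.87 and -0.41 (limma adjusted p = 7.47e-06). Dbn1, the actin-binding protein drebrin, rose from -2.44, -3.01 and -3.45 to -0.13, -0.53 and -0.47 (limma adjusted p = 8.53e-05). Cds1, an enzyme that makes CDP-diacylglycerol, went from -4.06, -3.98 and -3.66 to -0.70, -2.90 and 0.01, which limma called higher by 2.71 ± 0.64 (adjusted p = 0.0105). When blocked on the slide row Cds1 missed the threshold (3.20, adjusted p = 0.0522). From 12 to 60 weeks the bounds of Sema6a, Dbn1 and Cds1 were 18.5-fold, 20.3-fold and 11.5-fold. Over the 25 members called higher at 12 weeks, every 12 weeks array lay above every 0 weeks array in all but Lmo1, a LIM-domain protein (-2.28, -2.65 and -1.32, then -0.56, -1.35 and -0.39).

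Besides Map2k6 and Dmrta2, 4 of the members present on all 12 weeks arrays were already lower by then. P3h2, a collagen prolyl hydroxylase, changed by -1.15, Tlr5 by -1.19, Bcl11b, a zinc finger factor of T cell development, by -0.94, and Zfp651 by -0.96. P3h2 and Bcl11b were picked out because limma called them.

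The family lists were drawn up by patterns in gene symbols, so each holds only part of its family and a count of 0 is not one over the family. Members that such lists missed include the receptors Ackr3 and Oprd1, the sodium channel Asic5, the lectin Siglec15, the esterase Bche, the serine protease Htra1, and the transcription factors Dmrta2, Mycn, Gli3, Bcl11b, Hmx1 and Sp7, named here from their known roles after the members were seen. Of 185 G protein-coupled receptors on their list and above background at 0 weeks, 15 were members (8.11%, against 1.28% of all start-detected genes), and 5 of the 15 were lost by 12 weeks. Their starting levels were low, with Gprc5b the brightest. Mrgprb2, a receptor of mast cells, lay at -3.02, -3.40 and -3.02 at 0 weeks and at -7.39, -4.71 and -6.90 at 12 weeks, at least 3.12-fold lower. Adra1d, an alpha adrenergic receptor, lay at -3.18, -3.53 and -2.81, then at -3.63, -4.22 and -4.32, and had a bound of 2.92-fold at 60 weeks. Its change at 12 weeks was -0.89 (limma adjusted p = 0.0139) and missed the threshold when blocked on the slide row (-0.46). Of the 15, 8 were odorant or vomeronasal receptors, such as Vmn2r35 at a mean of -3.49 at 0 weeks, whose probes may bind close relatives, so these are uncertain. Without 12 weeks replicate 3, Vmn2r35 was called lower at 12 weeks (-1.76, against -1.20 with it).

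Among enzymes that handle foreign compounds, 3 of the 46 start-detected genes with a cytochrome P450 symbol were members. Cyp3a44 lay at -3.52, -3.59 and -3.68 at 0 weeks and at -7.47, -6.83 and -6.96 at 12 weeks, at least 2.28-fold lower. Cyp3a16 lay at -4.31, -4.43 and -4.27 and then at -7.44, -6.71 and -6.92. These enzymes have close relatives on chromosome 5, and their probes may not tell them apart. Nr1i2, the pregnane X receptor that drives Cyp3a genes in liver and gut, lay at -3.36, -3.52 and -3.74 at 0 weeks, at -2.18, -4.35 and -2.41 at 12 weeks and at -6.98, -5.94 and -5.25 at 60 weeks. Nr1i2 was above background on all 3 arrays of 12 weeks, and its part in the Cyp3a losses was not tested. Without 12 weeks replicate 2, limma called Nr1i2 higher there (1.25, against 0.56 with it). Cyp3a11, picked out as the next start-detected gene beside Cyp3a44, had means of -3.22 at 0 weeks and -3.60 at 60 weeks. Cyp3a11 was above background on all 3 arrays of 60 weeks. Ugt1a10, a glucuronosyltransferase that shares exons with its relatives, rose from a mean of -1.97 to -1.01 at 12 weeks (limma adjusted p = 0.0246) before its loss. That call ended in 5 alternatives: when blocked on the slide row (1.10), and without 0 weeks replicate 1 (0.90) or 2 (0.86) or 12 weeks replicate 1 (0.89) or 3 (0.83). Akr1c14, a steroid dehydrogenase, fell from -2.81 to -5.20 (limma adjusted p = 0.0215). The call on Akr1c14 likewise ended in 5 alternatives, among them leaving out 0 weeks replicate 1 (-2.37) or 3 (-2.23) or 12 weeks replicate 1 (-2.45). Aldh1b1, a mitochondrial aldehyde dehydrogenase, rose from -3.59 to -1.27 (limma adjusted p = 0.00153) before its loss.

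Of 216 start-detected genes with a solute carrier symbol, 5 were members. Slc18b1, a vesicular polyamine transporter, lay at -1.69, -1.76 and -1.61, then at -1.34, -2.25 and -1.31, and at -6.73, -6.61 and -6.85 at 60 weeks, at least 8.20-fold lower. Slc25a2, a mitochondrial ornithine carrier, was lost by 12 weeks, from a mean of -3.46 to -6.97. It lay at -5.54 at 60 weeks, where the more lenient call was met on all 3 arrays. Slc35g2 rose at 12 weeks by 1.71 (limma adjusted p = 0.0116), and missed the threshold when blocked on the slide row (1.29). Slc35f3, a thiamine transporter, lay at -3.92 and then at -4.54. Without 12 weeks replicate 2, limma called Slc18b1 higher at 12 weeks (0.36, against 0.05 with it).

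Of 134 start-detected genes on the symbol list of developmental factors, Tbx15, Rora and Nr1i2 were members. Rora, a nuclear receptor of the circadian clock, rose from -2.96, -2.80 and -3.19 to -2.02, -2.12 and -2.05 at 12 weeks (limma adjusted p = 0.00173) and lay at -6.77, -6.34 and -6.36 at 60 weeks. Of 23 start-detected Hox genes, Hoxa2 alone was a member, with means of -3.41, -4.52 and -5.27. Of 361 genes on the zinc finger list, which goes by symbol and so lacks the zinc finger factors Gli3 and Bcl11b, Zfp202 and Zfp651 were members. Of the 21 genes on the cadherin list, Pcdh9, a protocadherin, had means of -3.53, -4.47 and -4.68, and Cdh3, the adhesion protein P-cadherin, had -3.93, -3.17 and -6.07. limma's call on Hoxa2 at 12 weeks (-1.10, adjusted p = 0.0176) ended without 0 weeks replicate 1 (-1.06) or 12 weeks replicate 1 (-0.83) or 3 (-1.06). The call on Pcdh9 (-0.94, adjusted p = 0.0104) ended when blocked on the slide row (-0.92) and with another background correction (-0.37).

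Egf, the ligand of the epidermal growth factor receptor, was the single member among the 78 start-detected genes on the list of growth factors and receptors. It lay at -4.14, -4.42 and -4.16 at 0 weeks, at -5.32, -4.93 and -5.51 at 12 weeks and at -5.27, -5.80 and -4.94 at 60 weeks, a bound of 1.39-fold. Organoid media commonly contain this factor as protein, which an array does not see. The symbol lists of ion channels (73 start-detected genes), keratins (30), collagens and laminins (21), Wnt genes (22), lectins and mucins (24), imprinted genes (33) and germline genes (5) held no member, while Asic5 and Siglec15 lie outside them. The remaining lists gave 1 member of 35 conjugating enzymes (Ugt1a10), 2 of 49 esterases and aldo-keto reductases, 1 of 60 serine proteases and serpins (Serpinb10), 1 of 90 cytokine genes (Il17rb) and 1 of 25 metalloproteases and their inhibitors (the inhibitor Timp3). Syce2 was not on the germline list. In all, 121 of the 160 members belonged to no list.

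Of 12 marker lists, the tuft cell list gave 1 member of 8 start-detected genes and the enteroendocrine list 1 of 7. The other lists, of 2 to 17 start-detected genes each, gave 0. With lists this short and 1.28% of all start-detected genes being members, nothing is read from these counts. Il17rb, the receptor for the tuft cell cytokine Il25, lay at -3.66, -3.70 and -3.65 at 0 weeks, between -6.85 and -5.37 at 12 weeks and at -5.89, -6.28 and -7.16 at 60 weeks. limma called it lower at 12 weeks (adjusted p = 0.00223), as was likely for a member sorted as lost by then, with a bound of 2.17-fold. Its other probe, with a mean of -6.67 at 0 weeks, was above background on no array. The summed level of 18 tuft cell markers, Il17rb included, was 64.1 to 85.3 times the 75th percentile at 0 weeks, 28.6 to 58.1 at 12 weeks and 35.6 to 41.4 at 60 weeks. Of these markers 8 were above background on all arrays of 0 weeks, and the defining Trpm5 and Il25 were above background on no array. Ptgs1 gave most of the sum, with mean levels of 6.09, 5.13 and 5.14. The part of tuft cells in the fall of Il17rb was not tested. Insl5, a hormone of colonic enteroendocrine cells, lay at -3.57, -3.83 and -4.32 at 0 weeks, at -3.77, -5.28 and -4.29 at 12 weeks and at -5.51, -4.69 and -4.63 at 60 weeks. The summed level of 26 enteroendocrine markers went the other way, from 26.4 to 30.5 at 0 weeks to 166 to 198 at 60 weeks, while Chga, Neurod1 and Gcg were above background on no array. Nts and Cpe gave most of that sum at 60 weeks, with mean levels of -6.62 and 4.79 at 0 weeks and of 6.58 and 6.26 at 60 weeks.

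The summed level of 21 fibroblast and smooth muscle markers was 87.2 to 100.6 at 0 weeks, 58.5 to 81.8 at 12 weeks and 49.7 to 67.1 at 60 weeks. Fn1 gave most of it. Of the 21 markers, 7 were above background on all 3 arrays of 0 weeks and 12 on none of these. Fn1, Tagln, Bgn, Sparc and Col1a2 were above background on all 9 arrays. Col1a1 was so on all arrays of 0 and 60 weeks but on none of 12 weeks. Dcn, Lum, Pdgfra, Pdgfrb, Postn and Thy1 were above background on no array. Members known from connective tissue, picked out after their values were seen, were Cd248, a surface protein of fibroblasts and pericytes, Mfap5, a microfibril protein, and Gli3, a transcription factor of Hedgehog signalling. Their means at 0 weeks were -4.50, -4.36 and -3.36, and at 60 weeks -5.02, -5.62 and -6.02. Members known from lymphocytes, picked out in the same way, were Zap70 and Lat, a kinase and an adaptor of T cell receptor signalling, and Cd53, a tetraspanin of white blood cells. Zap70 went from -3.79 to -4.76, Lat from -4.12 to -4.94 and Cd53 from -3.73 to -6.71. The summed level of 25 immune cell markers was 23.9 to 31.1 at 0 weeks, 32.1 to 64.3 at 12 weeks and 33.7 to 42.0 at 60 weeks. Itgam, a marker of myeloid cells, gave most of it at 0 and 60 weeks, with mean levels of 3.91 and 4.63. Of the 25 markers, 8 were above background on all 3 arrays of 0 weeks and 13 on none of these. Cd3e, Cd4, Itgam, Csf1r, Coro1a, Fcer1g and Nkg7 were above background on all 9 arrays, and Ptprc on none. Mean levels of the T cell markers Cd3e and Cd4 were 0.63 and 2.32 at 0 weeks and 0.91 and 2.04 at 60 weeks. Cd3g and Cd8a, also of T cells, were above background on 1 array of 0 weeks and on none later. The part of other cell types in these members was not tested.

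The members were spread over all 19 autosomes, from 0.651% of the start-detected genes of chromosome 19 to 2.01% of those of chromosome 13. Of the members, 3 pairs were neighbours with no other gene named on the array between them. Cyp3a16 and Cyp3a44 on chromosome 5 had other array genes between them but no other start-detected one, and both were called lower at 12 weeks (limma adjusted p = 2.12e-05 and 3.71e-06). On chromosome 8, Cyp4v3, a fatty acid hydroxylase, and Fam149a both rose by 12 weeks and were lost by 60 weeks. Cyp4v3 lay at -2.73, -3.27 and -2.63, then at -0.05, -1.10 and -0.30, and at -6.92, -6.50 and -6.99 at 60 weeks, a rise of 2.40 ± 0.29 (limma adjusted p = 0.000418). Their outer neighbours were not lost: Fat1 had means of 5.11, 5.79 and 5.51, and Tlr3 of -0.61, -0.69 and -1.64.

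The members of the pairs on chromosomes 1 and 13 did not move alike at 12 weeks. On chromosome 1, Tlr5, the receptor for bacterial flagellin, fell from -2.58, -2.57 and -2.70 to -3.81, -3.77 and -3.84 (limma adjusted p = 0.0120), and missed the threshold when blocked on the slide row (-1.19, adjusted p = 0.0960). Disp1, which releases Hedgehog ligands from the cell, rose from -1.90, -2.36 and -2.40 to -0.58, -0.86 and -0.57 (limma adjusted p = 0.00255). On the 60 weeks arrays Tlr5 lay at -6.93, -5.56 and -6.45 and Disp1 at -6.01, -6.86 and -5.81. On chromosome 13, Diras2, a small GTPase, lay at -4.27, -4.52 and -5.24 in the group means, beside the rising Syk.

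The nearest start-detected genes on either side filled 318 places, held by 316 genes. In 297 of these places the gene was above background on all 3 arrays of 60 weeks and in 8 on none, and those 8 were members themselves. Both flanking genes were above background on all 3 arrays for 140 members. Over all start-detected genes only 1.3% were above background on no 60 weeks array. Flanking genes were therefore likely to be above background, and nothing about the members is read from these counts.

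**Figure D5:**
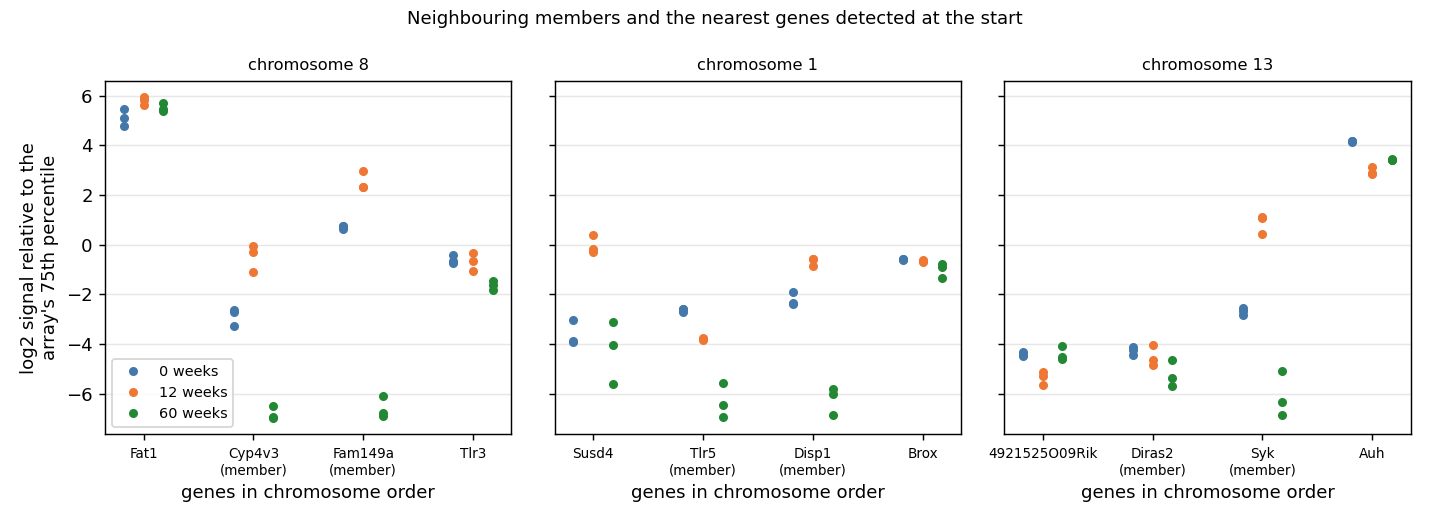
Log2 level, in relation to the 75th percentile of the array, (vertical axis) on each array of the 3 member pairs with no other array gene between them, and the nearest start-detected genes on either side, in chromosome order (horizontal axis). Cyp4v3 and Fam149a go up at 12 weeks and lie at or under -6.08 on all arrays of 60 weeks, while Fat1 and Tlr3 on either side stay above background.

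A single probe stood for 123 members (76.9%, against 67.7% of start-detected genes), so most losses rest on 1 probe. In 13 of the 37 members with several probes, at least 2 probes were above background at 0 weeks, and by the rule none was at 60 weeks. Among them were Car8, a carbonic anhydrase-related protein, with means of -1.54, -4.33 and -6.42 on 1 probe and -3.20, -5.57 and -6.90 on the other, and Gkap1, an anchoring protein of protein kinase G, with -1.78, -0.69 and -7.05 and with -3.01, -1.94 and -6.70. They were picked out as genes on which the probes could be compared, and in both genes the probes moved the same way. By RefSeq type, 154 members code for protein and 6 are long noncoding RNAs.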

How the data were processed

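Total RNA of 9 organoid samples was hybridised to Agilent single-colour (Cy3) arrays. Per the file headers, the authors' scans were quantified by Agilent Feature Extraction 10.7.3.1 (protocol GE1_107_Sep09), and the array design names build mm9:NCBI37:Jul2007. The deposited intensity of a spot is background-subtracted and detrended within the array, on a linear scale. The deposited quality calls, 0 or 1 per spot, gave detection. The deposited value table holds a linear signal for 42530 of 55681 probes. It equals the intensity divided by 1 constant per array, 0.993 to 0.999 times the 75th percentile, with no centring of genes, and its column medians are 0.0668, 0.0719, 0.0705, 0.0619, 0.0681, 0.0733, 0.0673, 0.0695 and 0.0582 in label order.

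Spots of a probe were averaged without outlier spots (117 to 163 of 59305 per array), and the log2 of the array's 75th percentile (controls left out) was subtracted from the log2 values. A probe's call is the majority over its spots. No spot was saturated. RefSeq accessions named 27235 probes with 1 symbol, 0 with several and 28446 with none, for 20660 genes through the GRCm38.p6 table, used for names, chromosomes and gene order only. A gene's level is that of its brightest probe by mean, and detection used all its probes.

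Genes that passed the call on 2 or more of a group's 3 arrays were fitted with limma 3.58.1 (lmFit, eBayes; R 4.3.3) over all 9 arrays as group means, two-sided, Benjamini-Hochberg over 14034 genes, at a threshold of 0.05. The script was tested on simulated data. Counts and tables used Python 3.11.15, pandas 2.3.3 and numpy 2.4.6. Precision is limited by 3 arrays per group.

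The members, gene lists and markers were chosen with earlier results of these data known. Described by rule were the 12 brightest members lost by 12 weeks, the 12 brightest present on all 12 weeks arrays, the 6 largest non-overlapping rises at 12 weeks, up to 4 members per list by starting level, neighbouring pairs, and genes at the edge of the calls. Clone and predicted-gene names were passed over. Any other gene is said to have been picked out afterwards or follows from a small count. Alternatives changed the detection call, the arrays required, the scaling, background correction, filter, blocks and array weights, and left out each array in turn.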

Additional observations from a re-analysis of the deposited data

How the results depend on the processing

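The number of members follows the detection call. The lenient call gave 108 members, of which 22 were shared with the 160, with 20 on no 12 weeks array. Asking for 2 of 3 arrays at 0 weeks gave 260 members and 83 on no 12 weeks array, allowing 1 array at 60 weeks gave 262, and asking for at least 1 log2 unit above the lowest well-detected signal gave 98 and 26. Leaving out 1 array gave 160 to 202 members, 46 to 59 on no 12 weeks array and 63 to 78 on all of them.

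At 12 against 0 weeks, limma called 3182 of all genes lower and 2678 higher. Array weights raised the first count to 4915. Leaving out 1 array gave 2234 to 4068 lower and 1994 to 3337 higher, and 58 to 73 members lower and 22 to 32 higher. The deposited value table called 14 members higher, since it holds only 14 of those 25 members. With the replicate number as a block, limma called 70 members lower and 25 higher; same-numbered samples did not deviate together (correlations -0.08 to 0.20), and the numbers are not a pairing. The slide as a block leaves out 60 weeks replicate 3 by construction. Vmn2r18 reversed when blocked on the slide row (1.05, against -1.15, which was not called) and was called lower without 12 weeks replicate 1 (-2.25); the cause was not tested. Of 59 named genes, 41 kept their direction and side of the threshold in all alternatives that gave them a value, which were 19 for 47 of the genes and 18 for the 12 that the deposited value table lacks. Normexp used the median spot signal. Asking for signal on all 9 arrays leaves no member, so it gave no value for them.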
